A study of Mus musculus with 18 samples.

Results

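The genes *Aqp4*, *Gja1*, *Gjb6*, *Aldh1l1*, *Sox9*, *S100b*, *Fgfr3*, *Agt* and *Aldoc*, which resting astrocytes express, were followed in RNA-sequencing counts from the dorsal horn of the mouse spinal cord (DHSC). These 9 genes were found by their symbols among the 55573 genes of the deposited count table, and each matched a single gene identifier. All 18 samples came from the ipsilateral dorsal horn of adult C57BL/6J mice aged 8 to 12 weeks, dissected at the level of segments L3 to L5, 2 h after 2% formalin in PBS had been injected into a hind paw. The dose was 8 µl per 20 g of body weight. The groups were 6 males (Male), 6 females in proestrus with a short pain-free interphase after the first bout of nocifensive behavior (F1/Proestrus) and 6 females in metestrus with a longer one (F2/Metestrus). Behavior and stage of the cycle therefore cannot be told apart in the female groups. All samples had received formalin, so that the values compare treated mice with each other and hold no level without injury.

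Astrocytes tile the dorsal horn, wrap synapses and capillaries, clear glutamate and potassium, and are joined to each other by gap junctions. The proteins encoded by the 9 genes serve these duties at different places. AQP4 passes water at the end-feet on blood vessels, GJA1 and GJB6 are connexins that build the gap junctions, and ALDH1L1 and ALDOC are enzymes of folate and sugar metabolism. AGT is the secreted precursor of the angiotensin peptides, S100B is a calcium-binding protein, FGFR3 is a receptor for fibroblast growth factors, and SOX9 is a transcription factor that is needed for astrocytes to form. Transcripts of this kind are used as signs of astrocyte identity, in contrast to *Gfap*, *Vim* or *Lcn2*, which rise when astrocytes react to injury. In bulk tissue, fewer astrocytes and less RNA per astrocyte cannot be told apart.

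Total counts ranged from 73590509 to 125724156 per sample, so that each member rested on at least 1748 counts in every sample. Levels are given as CPM, the counts scaled to library sizes that were corrected by the TMM method with factors from 0.966 to 1.03. The header of the count table numbers its columns in 2 series, 27 to 35 and 188 to 196. These hold replicates 1 to 3 and replicates 4 to 6 of every group. The profiles of these sets of libraries stood apart, and no label says whether they are separate library or sequencing batches. In the library of F1/Proestrus replicate 5 the 7 markers of sensory ganglion neurons summed to 413 CPM, whereas the highest sum among the males was 5.20 CPM and among the F2/Metestrus samples 5.60 CPM. The 8 markers of Schwann cells, the glia of peripheral nerve, summed to 2104 to 4894 CPM in males, highest in Male replicate 5, and to 1462 to 2862 CPM in females. The 8 neutrophil markers summed to 4.98 to 26.6 CPM in males and 1.78 to 9.05 CPM in females. Markers of neurons, of oligodendrocytes and their precursors, of microglia and of endothelium were present in every group, with medians of 10200, 32640, 474.1, 400.7 and 240.6 CPM in males and 11320, 31470, 494.4, 361.2 and 248.3 CPM in females, in that order.

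*Aldoc* was the member with the highest level and *Sox9* the one with the lowest. For comparing levels between genes, CPM were divided by the length of each gene's merged exons in GENCODE vM21 (GRCm38). *Aldoc* had 908 ± 70.8 CPM per kb (SD, n = 18 samples). It was followed by *Agt* with 251 ± 29.6 and *S100b* with 212 ± 19.2 CPM per kb. *Aqp4* had 89.3 ± 8.87, *Gjb6* 81.5 ± 7.92 and *Gja1* 53.1 ± 3.89 CPM per kb. *Fgfr3* had 44.9 ± 4.27, *Aldh1l1* 29.4 ± 2.49 and *Sox9*, the transcription factor, 5.46 ± 0.824 CPM per kb. The order held in every sample for *Aldoc* over *Agt*, *S100b* over *Aqp4*, *Gjb6* over *Gja1*, *Fgfr3* over *Aldh1l1* and *Aldh1l1* over *Sox9*. The ranges of the other neighbors overlapped, since *Agt* was above *S100b* in 16 of 18 samples, *Aqp4* above *Gjb6* in 12 and *Gja1* above *Fgfr3* in 16. This order rests on the division by exon length, which is the same in every sample. By undivided CPM *Aqp4* ranked 2, *Gja1* 3 and *S100b* 6, while *Aldoc* stayed at 1 and *Sox9* at 9.

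**Figure D1:**
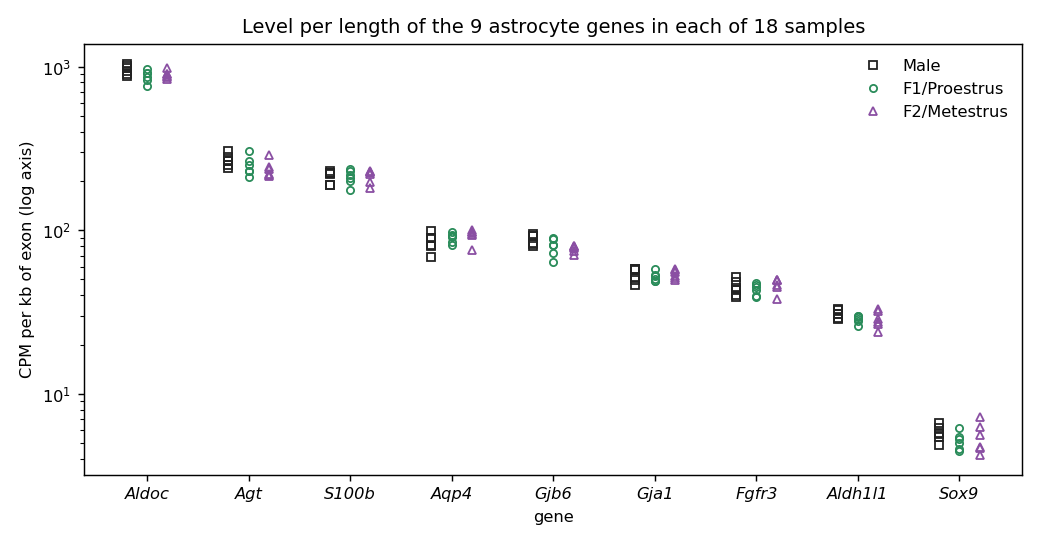
Level of each gene in CPM per kb of exon (vertical, log axis), with a symbol for each of the 6 samples of every group. *Aldoc* lies above all others at a mean of 908 CPM per kb and *Sox9* below all others at 5.46, and within each gene the symbols of the 3 groups overlap.

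Set against their closest relatives on the same per-length scale, 5 members were the main gene of their family in this tissue. *Aldh1l1* made up 94.7% ± 0.940 (SD, n = 18) of the summed CPM per kb of the cytosolic and mitochondrial formyltetrahydrofolate dehydrogenases *Aldh1l1* and *Aldh1l2*. *Fgfr3* made up 63.0% ± 1.80 of the 4 FGF receptor genes, with *Fgfr2* at 19.0% ± 1.63 and *Fgfr1* at 17.8% ± 1.19. *Aldoc* made up 59.7% ± 1.81 of the 3 aldolase genes, and nearly all of the rest was *Aldoa*, the form of muscle and most other cells. *S100b* held 47.1% ± 3.68 of the 11 S100 genes, ahead of *S100a1* at 22.5% ± 1.72. Of the 3 connexin genes of astrocytes, *Gjb6* held 59.0% ± 2.61, *Gja1* 38.5% ± 2.61 and *Gjb2* 2.51% ± 0.507. This order of *Gjb6* and *Gja1* rests on the division by exon length (2674 and 10257 bp), since undivided CPM were 217.9 ± 21.2 for *Gjb6* and 544.5 ± 39.9 for *Gja1*. *Sox9* differed from this pattern, with 12.5% ± 0.816 of the SoxE genes, below *Sox8* at 38.3% ± 3.43 and *Sox10*, which marks oligodendrocytes, at 49.3% ± 3.36.

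Several members share their place with other annotated genes. *Fgfr3* (chromosome 5, 33721674 to 33737068, plus strand) shares 998 bp of exon with *G630022F23Rik* on the opposite strand, which had 3.82% to 4.42% of the *Fgfr3* counts. *Aldh1l1* (chromosome 6, 90486427 to 90600203, plus strand) shares 499 bp of exon with the antisense gene *Gm15756*, which had 4.11% to 4.81% of its counts. Whether the counting used strand is not given in the sources used here, so that reads of these overlaps cannot be assigned to one strand. *S100b* lies over *Dip2a* with no shared exon base.

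The 250 bp in front of the start site were read from RefSeq (GRCm38.p6) for 7 of the 9 members, without *Aqp4* and *Sox9*. The RefSeq start site of *Aldh1l1*, at 90550793, lay inside the annotated span of the gene, so that its window is internal to this span. *Fgfr3* and *Aldoc* had 2 RefSeq windows each, and the one nearest the annotated 5′ end of the gene was taken. The windows of *Gjb6*, *Aldh1l1*, *Agt* and *Aldoc* are shown because 5 of the 6 gene pairs with a Pearson r above 0.5 in both library sets, described further on, lay among these 4 genes, although no pair passed its test. Each is written 5′ to 3′ on the strand of the gene, and capitals mark the letters of 4 motifs searched on both strands, namely the NFI half-site TTGGC, the SOX core ACAAT, the TATA box TATAAA and the CCAAT box.
*Gjb6*, chr14:57133612-57133861, minus strand: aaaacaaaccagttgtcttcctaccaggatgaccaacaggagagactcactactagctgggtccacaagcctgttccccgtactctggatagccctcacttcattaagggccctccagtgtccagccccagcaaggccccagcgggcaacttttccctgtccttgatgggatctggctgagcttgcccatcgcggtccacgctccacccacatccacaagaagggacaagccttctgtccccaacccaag
*Aldh1l1*, chr6:90550543-90550792, plus strand: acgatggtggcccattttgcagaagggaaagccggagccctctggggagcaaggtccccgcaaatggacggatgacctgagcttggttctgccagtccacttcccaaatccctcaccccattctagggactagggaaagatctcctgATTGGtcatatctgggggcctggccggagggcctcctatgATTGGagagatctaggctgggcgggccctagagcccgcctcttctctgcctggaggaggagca
*Agt*, chr8:124569707-124569956, minus strand: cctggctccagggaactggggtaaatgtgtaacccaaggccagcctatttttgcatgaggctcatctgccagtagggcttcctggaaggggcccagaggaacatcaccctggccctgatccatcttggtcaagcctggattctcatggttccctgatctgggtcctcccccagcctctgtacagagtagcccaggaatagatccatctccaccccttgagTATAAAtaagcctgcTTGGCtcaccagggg
*Aldoc*, chr11:78322823-78323072, plus strand: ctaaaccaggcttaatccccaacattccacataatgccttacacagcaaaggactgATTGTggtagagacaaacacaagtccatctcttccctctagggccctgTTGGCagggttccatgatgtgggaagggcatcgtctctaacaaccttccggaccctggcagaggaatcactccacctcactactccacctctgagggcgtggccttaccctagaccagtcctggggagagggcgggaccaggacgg
No motif was shared by all 4 windows. *Agt* had a TATA box whose first base lay at position -30 from the start site, and 12.4% of 32851 RefSeq windows held these letters. The NFI half-site stood at -15 in *Agt* and at -146 in *Aldoc*, and was also found in *S100b*. It was present in 41.5% of all windows, and its letters can overlap a CCAAT box. *Aldoc* further held the SOX core at -194 (27.7% of all windows). *Aldh1l1* held the CCAAT box, read as ATTGG on the printed strand, at -103 and -63. These letters occurred in 33.8% of all windows and in those of *S100b* and *Fgfr3* too. The AP-1 motif TGANTCA (6.75% of all windows) was found in that of *Gja1* alone among the 7, and the window of *Gjb6* held none of the 5 motifs. Since all these letters are common, they are given as a description of the windows.

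The first comparison asked whether the astrocyte genes differed between the sexes, with all 12 females as a single condition. By the quasi-likelihood test of edgeR, 0 of the 9 members passed the FDR of 5%, a threshold that 0.197% of the 24862 genes tested passed (49 genes). At an unadjusted p under 0.05 there were 2 members, *Gjb6* and *Aldoc*, against 9.72% of all genes tested. DESeq2, run without this filter on low counts, called 0 of the 9 as well (0.345% of its 45823 genes with a p-value). Its default settings can leave genes of low counts without an adjusted p, so that this share has another base than that of edgeR. DESeq2 had 2 members at an unadjusted p under 0.05 (6.32%). With limma voom the calls were 0 (0.185%) and those at an unadjusted p under 0.05 were 4 (8.42%). The log2 fold changes of males against females ran from -0.12 for *Aqp4* to 0.16 for *Gjb6* and were positive in 6 of the 9. Their median was 0.11, beside a median of -0.0013 over all genes tested.

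*Gjb6*, the connexin gene with the larger fold change, lay between 215.5 and 254.2 CPM in the males, with a median of 234.2. In the females it lay between 172.1 and 239.2 CPM, with a median of 213.0. Of the males, replicates 4, 5 and 6 (245.2, 254.2 and 246.6 CPM) were above every female, while replicates 1, 2 and 3 (220.7, 223.3 and 215.5 CPM) fell among them. On the log2 scale males exceeded females by 0.16 (standard error, SE, 0.0592, 95% confidence interval 0.036 to 0.28), with an adjusted p of 0.379 in edgeR (0.0136 before adjustment). Within replicates 1 to 3 it was 0.059 and within replicates 4 to 6 it was 0.25, with adjusted p of 0.759 and 0.364. Without F1/Proestrus replicate 5, which had the lowest *Gjb6* of all samples and the raised ganglion markers, it was 0.14, and without Male replicate 5, which had the highest *Gjb6* and the highest Schwann cell markers, it was 0.12. *Gja1*, its partner in astrocyte gap junctions, lay between 473.8 and 597.1 CPM in males and between 502.2 and 596.1 CPM in females, so that the male range covered the female one. Its log2 fold change was 0.012 (SE 0.0540), and the 95% confidence interval of the difference ran from -6.72% to 9.01% of the female level. The ratio of *Gja1* to *Gjb6* in CPM per kb was 0.611 ± 0.0646 in males, 0.661 ± 0.0901 in F1/Proestrus and 0.698 ± 0.0326 in F2/Metestrus (SD, n = 6 each), with ranges that overlapped.

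**Figure D2:**
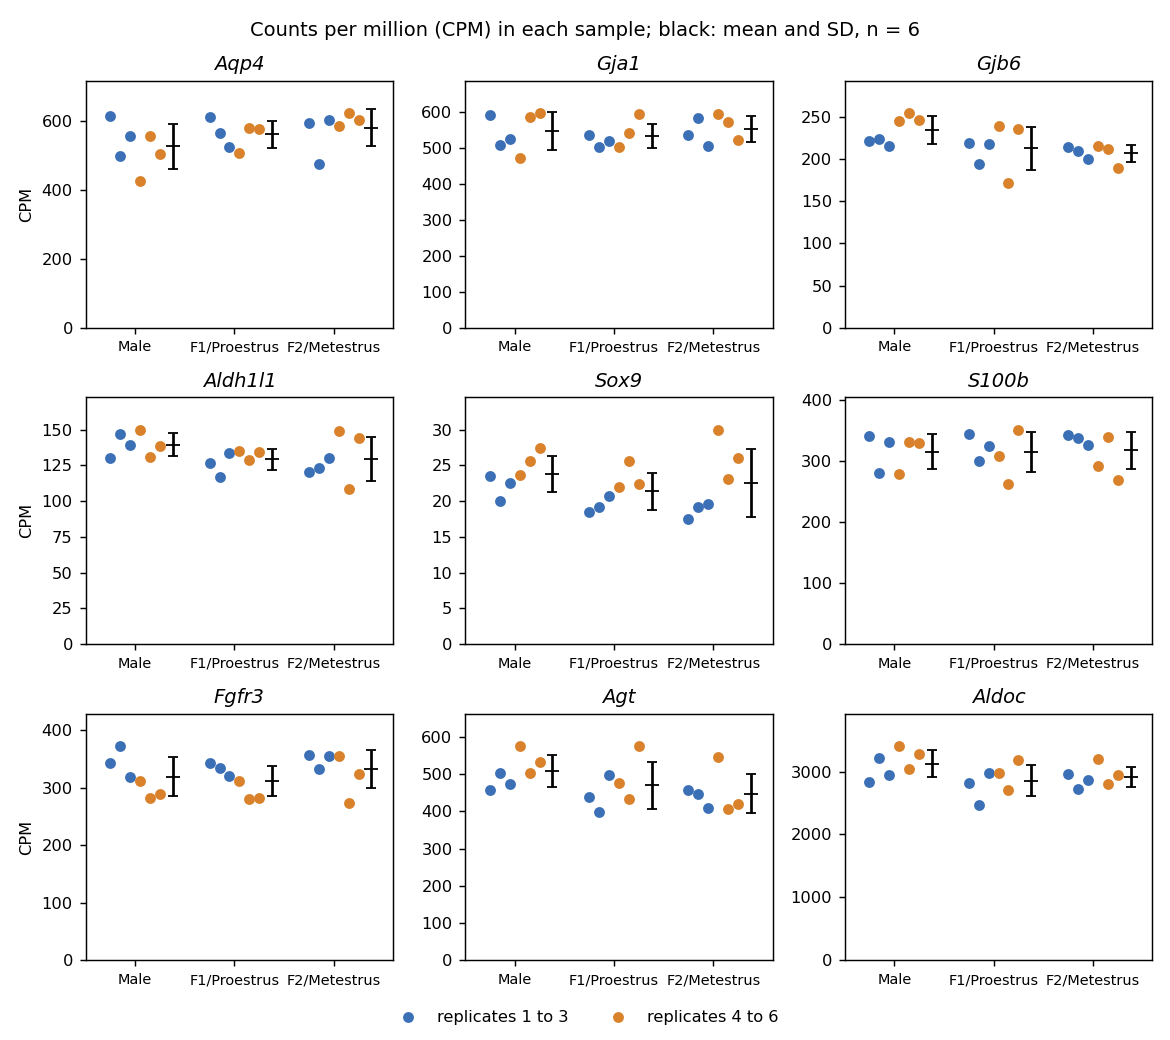
CPM of each gene (vertical, from 0) in every sample, by group, in blue for replicates 1 to 3 and orange for replicates 4 to 6, with the mean and SD of each group of 6 in black. The groups overlap in every gene, whereas the orange points of *Sox9* lie above the blue ones in all 3 groups.

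The members of intermediate metabolism had larger means in males than in females, without passing the threshold. *Aldoc*, the aldolase that splits fructose bisphosphate in glycolysis, had 2841 to 3407 CPM in males (median 3128) and 2468 to 3199 CPM in females (median 2898). Male replicates 2, 4 and 6 (3209, 3407 and 3285 CPM) were above every female. The log2 fold change of *Aldoc* was 0.12 (SE 0.0499, unadjusted p 0.0314, adjusted p 0.465 in edgeR), and it was 0.085 within replicates 1 to 3 and 0.14 within replicates 4 to 6. *Aldh1l1*, which removes formyl groups from the folate pool, had 130.2 to 150.0 CPM in males (median 139.0) and 108.5 to 149.3 CPM in females (median 129.2). Its log2 fold change was 0.11 (SE 0.0568, adjusted p 0.538). Among the other enzymes of both pathways, 0 of 19 tested genes of glycolysis and 0 of 14 of folate metabolism passed the FDR of 5% between the sexes. Their median log2 fold changes were -0.0059 and -0.026.

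*Agt*, the substrate from which renin releases angiotensin, had the largest SD of log2 CPM of the 9 within groups and sets of replicates. In males it lay between 456.2 and 575.9 CPM (median 504.0) and in females between 399.5 and 575.3 CPM (median 441.4). The highest female, F1/Proestrus replicate 6, thus almost reached the highest male, replicate 4. The log2 fold change was 0.15 (SE 0.0727, adjusted p 0.518 in edgeR), with 0.10 within replicates 1 to 3 and 0.18 within replicates 4 to 6. None of 12 tested genes for the enzymes and receptors of the renin-angiotensin system passed the threshold, with a median of -0.046.

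*Aqp4*, the water channel gene, was the member with the most negative fold change of males against females. It lay between 426.4 and 615.4 CPM in males (median 530.8) and between 474.6 and 623.4 CPM in females (median 583.4). The lowest sample of all was Male replicate 4, whereas Male replicate 1 was exceeded only by F2/Metestrus replicate 5. The log2 fold change was -0.12 (SE 0.0670, adjusted p 0.569 in edgeR), with -0.026 within replicates 1 to 3 and -0.22 within replicates 4 to 6. Its difference between these sets, tested as an interaction, was -0.21 (SE 0.126, adjusted p 0.964). Of 9 tested genes of the dystrophin complex and basal lamina that anchor AQP4 at the end-feet, 0 passed, with a median of 0.025.

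The means of *S100b* and *Fgfr3* lay close together between the sexes. *S100b* had 314.9 ± 28.0 CPM in males and 315.7 ± 30.0 CPM in females (SD, n = 6 and 12). Schwann cells, whose 8 markers had a median log2 fold change of 0.52 in males against females with 1 of them called, *Ncmap*, also make S100B, and their part in this value was not tested. *Fgfr3* had 319.1 ± 34.3 and 322.0 ± 30.1 CPM. The log2 fold changes were -0.0036 and -0.013, with intervals from -9.22% to 9.62% and from -10.1% to 9.25%. *Sox9* had 23.8 ± 2.52 CPM in males and 22.0 ± 3.72 CPM in females, and its log2 fold change of 0.12 had the widest interval of the 9, from -6.02% to 25.0%.

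Of the remaining lists, the other 22 astrocyte genes, such as the glutamate and potassium handling genes *Slc1a2* and *Kcnj10*, had 0 calls and a median of 0.0080. *Gfap* had 1593 CPM on average in males and 1634 CPM in females, with a log2 fold change of -0.037 (SE 0.0667, adjusted p 0.877). The 14 glial transcription factors, the 15 tested FGF ligands, receptors and targets and the 3 connexins of oligodendrocytes also had 0 calls, with medians of -0.015, 0.023 and -0.013. The list of 10 other S100 genes and the receptor *Ager* had 0 calls but 4 at an unadjusted p under 0.05 and a median of 0.20. This list holds *S100a8* and *S100a9*, which neutrophils make. Of 15 reactive astrocyte genes 1 passed, *Lcn2*, the lipocalin that neutrophils and reactive astrocytes release, with 9.70 CPM in males and 2.47 CPM in females and a log2 fold change of 1.97 (SE 0.255, adjusted p 0.000300 in edgeR). The neutrophil markers also had higher values in males, with 1 of 7 tested genes called, *Mpo*, and a median of 1.4. Their part in *Lcn2* was not tested.

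**Figure D3:**
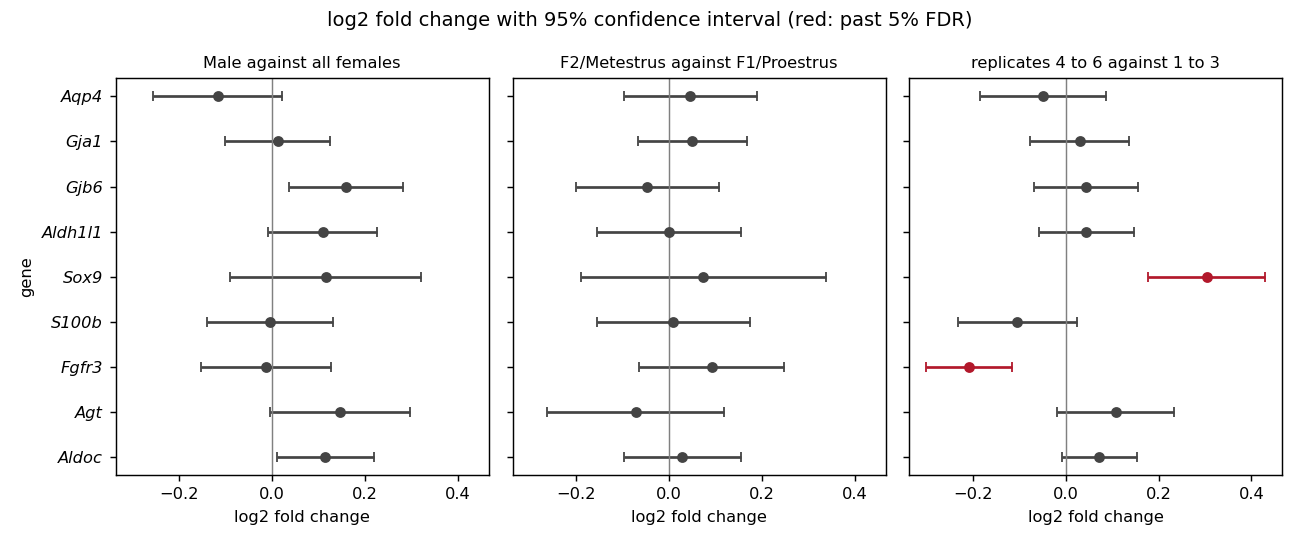
log2 fold change (horizontal) of each gene with its 95% confidence interval for males against females, F2/Metestrus against F1/Proestrus, and replicates 4 to 6 against 1 to 3. Only *Sox9* (0.30) and *Fgfr3* (-0.21), both in the comparison of replicate sets, are in red as past an FDR of 5%.

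The second comparison asked whether the astrocyte genes followed the type of female response. Between F2/Metestrus and F1/Proestrus 0 of the 9 members passed the FDR of 5% in edgeR, and 0 of all 24042 genes tested did (0%). None of the 9 reached an unadjusted p under 0.05, against 596 genes or 2.48% of all tested. DESeq2, without the filter on low counts, called 2 of 44127 genes with a p-value (0.00453%) and limma voom 0 of 24042 (0%). Neither had a member at an unadjusted p under 0.05, which 1.97% and 3.36% of these genes reached. The log2 fold changes ran from -0.072 for *Agt* to 0.092 for *Fgfr3*, with a median of 0.029, beside -0.00038 for all genes. The adjusted p was 1 for each member.

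*Fgfr3* had the largest value, with 311.6 ± 26.1 CPM in F1/Proestrus and 332.4 ± 32.5 CPM in F2/Metestrus (SD, n = 6 each). Its lowest, median and highest samples were 280.0, 315.7 and 342.7 CPM in F1/Proestrus and 272.6, 343.7 and 356.6 CPM in F2/Metestrus. The lowest sample of both groups was thus in F2/Metestrus, replicate 5, although 3 of its other samples were above the highest of F1/Proestrus. *Agt* went the other way, with 399.5, 456.4 and 575.3 CPM in F1/Proestrus and 407.2, 432.5 and 544.8 CPM in F2/Metestrus as lowest, median and highest. *Aqp4* had 507.6, 572.4 and 611.9 CPM in F1/Proestrus and 474.6, 599.2 and 623.4 CPM in F2/Metestrus. In each of these genes the range of one group lay within that of the other, that of F1/Proestrus for *Fgfr3* and *Aqp4* and that of F2/Metestrus for *Agt*. The 95% confidence intervals of the differences of the 9 members reached at most from -16.6% (*Agt*) to 26.4% (*Sox9*) of the F1/Proestrus level. In the 10 lists of related genes 0 genes passed, and *Gfap* had a log2 fold change of 0.0057 (SE 0.0896).

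The sexes and the female groups were also compared within the library sets. The difference of the male-female contrast between replicates 4 to 6 and 1 to 3 called 0 of the 9 members (0% of 24862 genes), and its largest size among them was the -0.21 of *Aqp4*. For the F2/Metestrus-F1/Proestrus contrast the same test called 0 of the 9, while 0.00832% of 24042 genes passed. With the set as a covariate, the males had a log2 fold change of 0.16 for *Gjb6*, 0.15 for *Agt* and 0.11 for *Aldoc*. Their adjusted p were 0.168, 0.275 and 0.197 in edgeR (0.0108, 0.0381 and 0.0168 before adjustment). With the replicate number as a block, *Aqp4* (-0.12) and *Aldh1l1* (0.11) also had unadjusted p under 0.05 in edgeR, at 0.0364 and 0.021. Their adjusted p were 0.273 and 0.223, and no member was called in either fit. The share of all genes under an unadjusted p of 0.05 is not given for these fits.

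A larger share of the table differed between the sets of libraries themselves, which are no condition of the study. With the group as a covariate, replicates 4 to 6 differed from replicates 1 to 3 in 27.6% of 24038 genes at an FDR of 5% in edgeR, and 2 of the 9 members, *Sox9* and *Fgfr3*, were among them. This share, 2 of 9, is close to that of all genes. DESeq2, run without the filter on low counts, called these 2 members too, among 7346 of 45740 genes with a p-value (16.1%). Not all of these had an adjusted p, so that this share has another base than that of edgeR. So did limma voom, among 7738 of 24038 genes (32.2%).

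*Sox9* (chromosome 11, 112782224 to 112787760, plus strand) was higher in replicates 4 to 6. In males it had 23.6, 20.1 and 22.5 CPM in replicates 1 to 3 and 23.7, 25.6 and 27.4 CPM in replicates 4 to 6. In F1/Proestrus it had 18.4, 19.2 and 20.7 CPM in the first set and 22.0, 25.6 and 22.4 CPM in the second. In F2/Metestrus it had 17.4, 19.2 and 19.6 CPM in the first set and 30.0, 23.1 and 26.0 CPM in the second. The sets did not overlap within any group, which was so for 3.49% of all genes in this direction. The log2 fold change was 0.30 (SE 0.0605, adjusted p 0.000879 in edgeR), with 0.38 in females alone (adjusted p 0.00417) and 0.21 in males alone (adjusted p 0.227).

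*Fgfr3* was lower in replicates 4 to 6. In males it had 343.4, 372.3 and 319.1 CPM in replicates 1 to 3 and 310.5, 281.1 and 288.2 CPM in replicates 4 to 6. In F1/Proestrus it had 342.7, 333.4 and 320.8 CPM in the first set and 310.6, 280.0 and 281.8 CPM in the second. In F2/Metestrus it had 356.6, 332.9 and 354.5 CPM in the first set and 355.2, 272.6 and 322.7 CPM in the second. The sets were apart in males and F1/Proestrus but not in F2/Metestrus, where replicate 4 kept the level of the first set. The share of all genes apart in only these groups was not computed. Sets apart in all 3 groups were found for 4.1% of all genes in this direction. The log2 fold change was -0.21 (SE 0.0439, adjusted p 0.00142 in edgeR), with -0.17 in females alone (adjusted p 0.0617) and -0.24 in males alone (adjusted p 0.114). The overlapping gene *G630022F23Rik* had a value of -0.17 (SE 0.0629, adjusted p 0.0478). Reads of the overlap cannot be assigned to one strand, so that this value may not be independent of that of *Fgfr3*.

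The other 7 members lay between -0.10 for *S100b* and 0.11 for *Agt* and did not pass. Exon length moved with this difference over the whole table. Over 13506 genes of at least 5 CPM, the Spearman rho of exon length and log2 fold change was -0.59, across genes that are not independent replicates. The median was 0.13 for genes under 2000 bp, 0.068 from 2000 to 4000 bp, -0.022 from 4000 to 6000 bp and -0.14 above that. Of the 9 members, 5 had the sign of their length class, namely *Fgfr3* (7158 bp), *Aqp4* (6233 bp), *Aldoc* (3263 bp), *Gjb6* (2674 bp) and *Agt* (1891 bp). The other 4, *Gja1* (10257 bp), *Aldh1l1* (4516 bp), *Sox9* (4135 bp) and *S100b* (1484 bp), had the opposite sign. The part of length in the values of single genes was not tested.

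**Figure D4:**
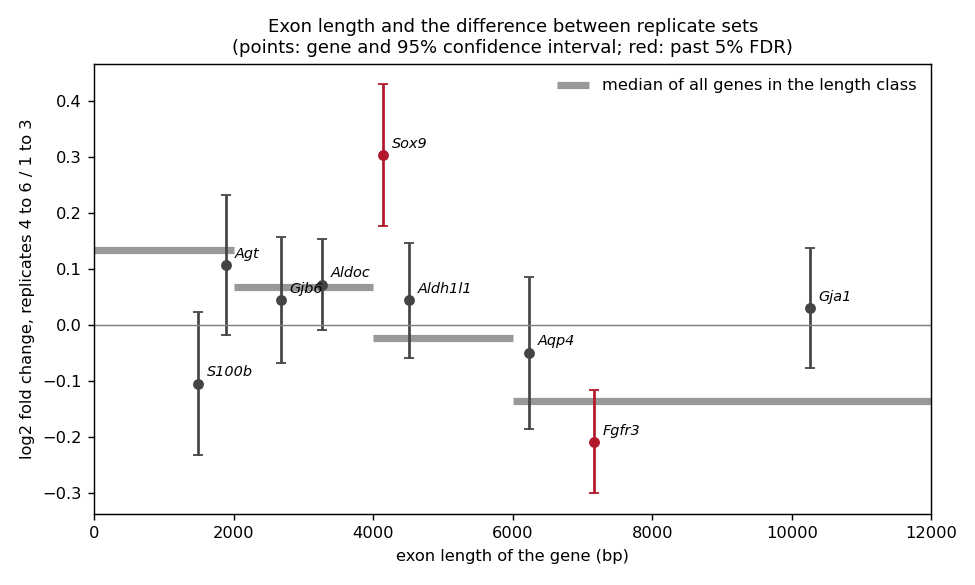
log2 fold change of replicates 4 to 6 against 1 to 3 with its 95% confidence interval (vertical) against the merged exon length of each gene (horizontal, bp), with grey bars for the median of all genes in 4 length classes, the last of which is drawn up to the end of the axis. *Sox9* (0.30) lies above its class and *Fgfr3* (-0.21) near it.

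The related genes differed between the sets in both directions. Of the 22 other astrocyte genes 7 were higher and 3 lower in replicates 4 to 6, among them the lipid carrier gene *Apoe* (0.25, adjusted p 8.58e-05) and the bicarbonate transporter gene *Slc4a4* (-0.43, adjusted p 2.14e-06), while *Gfap* had -0.013 (adjusted p 0.909). Of the 14 glial transcription factors 5 were higher and 1 lower, with *Sox10* at 0.28 (adjusted p 0.0103) and *Nfia* at -0.23 (adjusted p 0.0167). Of the 15 FGF genes 1 was higher and 3 lower, including *Fgfr1* (-0.15, adjusted p 0.00197), which thus had the sign of *Fgfr3*. Of the 9 anchoring genes 6 were lower and 0 higher, led by the laminin gene *Lama1* (-0.77, adjusted p 6.00e-05) and the agrin gene *Agrn* (-0.43, adjusted p 4.13e-06), whereas *Aqp4* itself had -0.049 (adjusted p 0.627). Glycolysis had 9 of 19 genes higher and 2 lower, with *Pgam1* at 0.28 (adjusted p 8.14e-06) and *Aldoa* at 0.18 (adjusted p 0.000776), beside 0.073 for *Aldoc* (adjusted p 0.178). Folate metabolism had 1 of 14 higher and 3 lower, the renin-angiotensin list 0 of 12 higher and 2 lower, the S100 list 3 of 11 higher and 0 lower, the oligodendrocyte connexins 1 of 3 higher and the reactive list 1 of 15 higher. Against these stand 12.4% higher and 15.2% lower of all genes tested. The lists were not matched for exon length, which moved with this difference over the whole table. The part of length in the counts of the lists was not tested.

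The spread of the members between samples lay on both sides of the middle of other well-expressed genes. The SD of log2 CPM within groups and sets was lowest for *Aldoc* at 0.10 and highest for *Agt* at 0.16, beside a median of 0.11 over 11357 genes of at least 10 CPM. This placed *Aldoc* at percentile 41.2 and *Agt* at percentile 81.3. *Fgfr3* was at percentile 47.5, and the other 6 lay above the middle, up to 77.2 for *S100b*.

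The members did not vary as 1 block. Correlations of log2 CPM between members were computed within each set of 9 libraries, for 36 pairs of genes, with two-sided exact permutation tests adjusted over the 36. No pair passed the adjusted threshold in either set. The sign was the same in both sets for 28 of 36 pairs, and 6 pairs had a Pearson r above 0.5 in both. Of these 6, 5 lay among *Gjb6*, *Aldh1l1*, *Agt* and *Aldoc*. *Agt* and *Aldoc* were closest, with r of 0.82 in replicates 1 to 3 (rho 0.87, exact permutation p 0.00392 and 0.00451, adjusted 0.0705 and 0.162). In replicates 4 to 6 their r was 0.90 (rho 0.88, exact permutation p 0.00142 and 0.00307, adjusted 0.0511 and 0.0811). Without the 2 samples farthest from the median of *Agt*, r was 0.85 and 0.93, so that this pair did not rest on them.

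*Gjb6* had r of 0.86 and 0.68 with *Agt* and of 0.77 and 0.72 with *Aldoc* in the first and second set. Without the 2 samples farthest from the median of *Gjb6* these were 0.50 and 0.44 for *Agt* and 0.66 and 0.45 for *Aldoc*. Leaving out such samples narrows the range of *Gjb6*, which can by itself lower r. The remaining pair of these 4 genes, *Gjb6* with *Aldh1l1*, had r of 0.63 in the first set but 0.17 in the second. *Aldh1l1* had r of 0.73 and 0.61 with *Agt* and of 0.82 and 0.67 with *Aldoc*. Without 2 samples these were 0.38 and 0.16, and 0.42 and 0.50. The sixth pair was *Gja1* with *S100b*, at r of 0.61 and 0.60 (rho 0.77 and 0.48), and without 2 samples at 0.74 and 0.76. The connexin partners *Gja1* and *Gjb6*, by contrast, had r of 0.37 and 0.09. *Aqp4* had negative r with *Agt* in both sets, -0.45 and -0.59, and with *Aldoc*, -0.17 and -0.67. The samples of a set come from 3 groups and differ in depth, and the composition of the tissue was not measured apart from the markers.

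**Figure D5:**
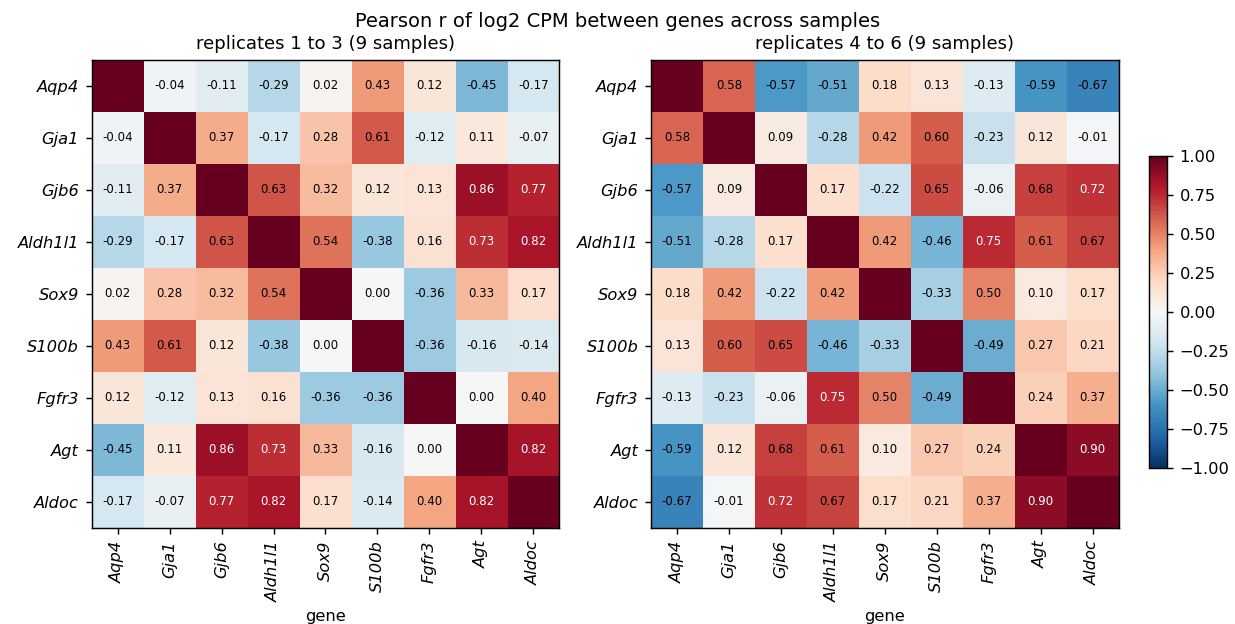
Pearson r of log2 CPM (color, from -1 in blue to 1 in red) between each pair of genes across 9 samples, for replicates 1 to 3 on the left and replicates 4 to 6 on the right. *Agt* and *Aldoc* (0.82 and 0.90) are red with each other and with *Gjb6* and *Aldh1l1* on both sides, *Gjb6* with *Aldh1l1* is pale on the right (0.17), and *Aqp4* is blue with *Agt* and *Aldoc*.

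Outside the 9 members, the genes whose levels followed each one most closely were sought among 13502 genes of at least 5 CPM, by Pearson r over the 18 samples after the mean of each group in each set had been subtracted. For *S100b* these were *Nudt19* and *Pyurf* (r of 0.96 each), for *Aldoc* *Ap5s1* and *Dennd3* (0.95 each), for *Agt* *E130208F15Rik* and *Smox* (0.92 and 0.91) and for *Aldh1l1* *Wnt7b* and *Sugp2* (0.94 and 0.93). For *Gjb6* they were *Oxnad1* and *Cox19* (0.92 each), for *Gja1* *Utp14b* and *Itm2b* (0.92 and 0.90), for *Aqp4* *Rassf3* and *Swsap1* (0.88 and 0.85) and for *Sox9* *Larp7* and *Fam102a* (0.86 and 0.84). For *Fgfr3* the first was the overlapping *G630022F23Rik* (0.93), whose reads may not be separate from those of *Fgfr3*, followed by *Exoc7* (0.90). The median r over all genes was between 0.011 and 0.11 for the 9 members. As the highest of 13502 values each, these r are given as a description, and none of the 18 genes named is in the lists of astrocyte genes used here.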

How the data were processed

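The authors deposited raw counts per gene for 18 samples, without normalization. Per the methods, reads were mapped uniquely to mm10 with Subread and counted on exons with featureCounts. For libraries the methods name the TruSeq kit and the labels SMART-Seq v4 cDNA with Nextera XT tagmentation, and the latter has PCR steps without molecular identifiers. A deposited DESeq2 table of 1 comparison was used for gene symbols only; its fold changes and p-values were not used. Use of strand in counting is not given in the sources used here.

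Counts were tested with edgeR 4.0.16 in R 4.3.3 (filterByExpr with a minimum count of 10 and total of 15, TMM, quasi-likelihood test, Benjamini-Hochberg FDR of 5%), over the whole table. Standard errors and confidence intervals came from the same fit. log2 CPM used a prior count of 2. The scripts were tested on simulated data. DESeq2 1.42.0 and limma voom 3.58.1 were alternatives. Total counts of 73590509 to 125724156 make 3 counts equal to 0.0240 to 0.0407 CPM, and the 9 genes had at least 1748 counts in every sample. Counting error was not computed apart from the spread between mice. Exon lengths came from GENCODE vM21 and promoters from RefSeq.

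The 9 genes, the 10 lists of related genes and the 11 marker lists were chosen with earlier results of these data known. The lists not described with the results, ependyma and meningeal fibroblast, had 0 calls between the sexes and between the female groups, and the red blood cell markers also had 0. Named genes were the 9 members, *Gfap*, the called genes of smallest p and the gene of highest level in each list, and the 2 genes most like each member. *Slc1a2*, *Kcnj10*, *Sox8*, *S100a8*, *S100a9*, *Ager*, *Vim*, *Mpo*, *Ncmap* and the relatives in the family shares were added after their values were seen. Same-numbered replicates did not deviate together in every pair (14 of 18 correlations above 0.1, and 5 of 18 once the mean of each set was removed), so the numbers were not used as pairs.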

Additional observations from a re-analysis of the deposited data

Results flagged for a closer look

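In 2 of 27 sets of 6 samples, 1 sample lay apart from the others by Dixon's criterion, which flags about 1 in 20 sets by chance. *Aqp4* was 474.6 CPM in F2/Metestrus replicate 2, and the nearest sample of the group was 585.9 CPM. *Agt* was 544.8 CPM in F2/Metestrus replicate 4, and the nearest sample was 458.3 CPM. With the sample left out, the log2 difference between F2/Metestrus and F1/Proestrus became 0.098 for *Aqp4* and -0.14 for *Agt*, both still without a call in edgeR.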

How the results depend on the processing

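No member was called between the sexes or between the female groups under any alternative run, including each sample left out in turn (0 to 0 members called in both). Of the values of single members under the alternatives with all samples or parts of them, 103 of 108 between the sexes, 81 of 90 between the female groups and 59 of 63 between the sets of replicates kept their direction and side of the threshold. In the whole table the 49 calls between the sexes became 158 with DESeq2, 31 with at least 10 counts in every sample, 148 with the replicate number as a block, 134 with the set as a covariate, 16 and 13 in replicates 1 to 3 and 4 to 6 alone, and 13 and 22 against F1/Proestrus or F2/Metestrus alone. They ranged from 25 (without Male replicate 5) to 77 (without F1/Proestrus replicate 5) with 1 sample left out. Between the female groups DESeq2 called 2 genes, the block 0, and leaving out a sample 0 to 0. No such block was fitted for the sets, which split the replicate numbers.

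Between the sets, 3932 genes were called in females alone and 1198 in males alone, in place of 6637, and 5832 to 6913 with 1 sample left out. In females alone 1 member was called, *Sox9*, and in males alone 0; with 1 sample left out there were 2 to 3, the third being *Aldoc* without F2/Metestrus replicate 5. *Fgfr3* was not called in females alone (-0.17) nor in males alone (-0.24), and *Sox9* not in males alone (0.21), where fewer samples were tested. *Aqp4* had 0.038 in females alone and -0.070 to 0.0013 with 1 sample left out.

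Members with values near 0 changed sign. Between the sexes *Gja1* had -0.0020 in replicates 4 to 6 and -0.024 against F2/Metestrus alone, *S100b* 0.051 in replicates 4 to 6, and *Fgfr3* 0.0056 in replicates 1 to 3 and 0.024 against F1/Proestrus alone. With 1 sample left out they ranged from -0.025 to 0.044, from -0.035 to 0.023 and from -0.069 to 0.011. Between the female groups, within replicates 1 to 3, *Aqp4* had -0.033, *Aldh1l1* -0.017 and *Sox9* -0.057, and within replicates 4 to 6 *S100b* had -0.037. With limma voom *Aldh1l1* had -0.031 and *Sox9* -0.018. *Aldh1l1* had -0.00098 without a filter, -0.0030 with at least 10 counts in every sample and -0.0067 with the replicate block. With 1 sample left out the ranges were -0.046 to 0.048 for *Aldh1l1*, -0.024 to 0.14 for *Sox9*, -0.035 to 0.056 for *S100b* and -0.0077 to 0.063 for *Aldoc*. The cause of these changes was not tested.

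Over all 18 samples, after group and set means were subtracted, 6 of 36 pairs passed the adjusted threshold by Pearson r in place of 0. These were *Agt* with *Aldoc*, *Aldh1l1* with *Agt*, *Aldoc* and *Fgfr3*, and *S100b* with *Gja1* and *Gjb6*. By Spearman rho, *Aldh1l1* with *Agt*, *Aldh1l1* with *Fgfr3* and *S100b* with *Gjb6* did not pass (adjusted permutation p of 0.104, 0.0871 and 0.104). Values left after subtracting shared means are not independent, so that these p-values can be too small. The pairs are given as a description. Without division by length 6 of the 9 members changed their rank by level. Between the female groups the upper bound of the intervals of single members was highest for *Sox9* at 26.4%, whereas for *Gja1* it was 12.4%. Without division by length *Gja1* stood above *Gjb6*.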
